A study of Mus musculus with 8 samples.

Results

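The 5 protein kinase C (PKC) genes Prkch, Prkcq, Prkca, Prkcb and Prkcd were examined for called Smad4 peaks in mouse CD4+ T cells. Chromatin immunoprecipitation and sequencing (ChIP-seq) with an antibody to Smad4, the common partner of the receptor-activated SMADs, gave 1 peak list per library. A peak was assigned to a gene when it met the gene's RefSeq body or the 10 kb on either side, called the gene's territory here. The genes are 5 of the 21779 protein-coding genes used, and their territories held 52 of the 15882 regions found in WT but not in KO lists. The genes were chosen as family members with their peak lists known, and the peaks were selected on position, so counts and positions are given as a description, without a test.

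The KO libraries came from CD4cre;Smad4fl/fl mice, in which a Cre recombinase driven by Cd4 sequences removes a floxed Smad4 allele from T cells, and the other libraries from WT mice. All mice were on the C57BL/6 background, and their CD4+ T cells, taken from spleen and lymph node, were activated and held for 12 h with interleukin 6 (IL6) plus a TGF-β receptor (TGFbR) inhibitor. There were 2 KO and 2 WT ChIP libraries, and 4 input libraries that were not analysed here. KO replicate 1 was a pool of male and female, KO replicate 2 was male and both WT replicates were female, so sex and genotype cannot be told apart. The labels do not give ages or say, beyond these sexes, whether replicates came from separate animals.

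PKC enzymes are serine/threonine kinases switched on at membranes. The conventional forms, PKC-α (Prkca) and PKC-β (Prkcb), need calcium and diacylglycerol. The calcium-independent forms, PKC-δ (Prkcd), PKC-θ (Prkcq) and PKC-η (Prkch), need diacylglycerol but not calcium, and the atypical forms need neither. In T cells diacylglycerol is made downstream of the T cell receptor, and PKC-θ passes the signal on to NF-κB. PKC-θ and PKC-η are the forms most closely tied to the contact between a T cell and an antigen-presenting cell.

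Over the whole genome KO replicates 1 and 2 had 564 and 424 peaks, against 27120 and 19792 in WT replicates 1 and 2. The files give no read depth, peak height or score, so a gap in peak number between lists can follow depth as well as binding. Smad4 itself, the targeted gene, had 1 and 0 peaks in KO replicates 1 and 2, against 5 and 3 in WT replicates 1 and 2. Peak positions do not show whether the allele was deleted. A WT-only region was present at 6 of 6 T cell marker genes (Cd3e, Cd3d, Cd3g, Cd4, Cd5 and Cd6), at 1 of 4 B cell markers (Cd79a) and at 0 of 4 myeloid markers (Lyz2, Itgam, Csf1r and Cd14). Among all protein-coding genes the share with such a region, one found in both WT lists and in no KO list, was 44.3%. Cd79a held 5 of these regions, and each T cell marker held 2 to 4. The territories of Cd3g, Cd3d and Cd3e overlap, so these markers can share regions. The body of Cd79a is 4.36 kb of a territory of 24.4 kb, so its regions can lie outside the gene. Peaks are not a measure of expression, so the labelled cell type was not tested by these counts.

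Each of the 5 PKC genes held peaks in both WT lists, and nearly none in the KO lists. Prkch had no peak in either KO library, against 40 and 27 peaks in WT replicates 1 and 2. Prkcq had 1 and 0 peaks in KO replicates 1 and 2, against 19 and 13 in WT replicates 1 and 2. For both forms the WT counts lay far above the KO counts in these lists. Prkcd, the remaining calcium-independent form among the 5, had none in either KO library, against 4 and 2 in WT replicates 1 and 2. Prkca had none in either KO library, against 14 and 6 in WT replicates 1 and 2. Prkcb had none in either KO library, against 16 and 9 in WT replicates 1 and 2. For each gene both WT counts lay above both KO counts, as in 45.7% of all protein-coding genes and 52.9% of those with a territory of at least 100 kb. WT replicate 1 had more peaks than WT replicate 2 at each gene, as it had genome-wide. A KO peak lay in the territory of 1 of the 5 genes, against 2.42% of all protein-coding genes and 6.15% of the 3137 with such a long territory.

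**Figure D1:**
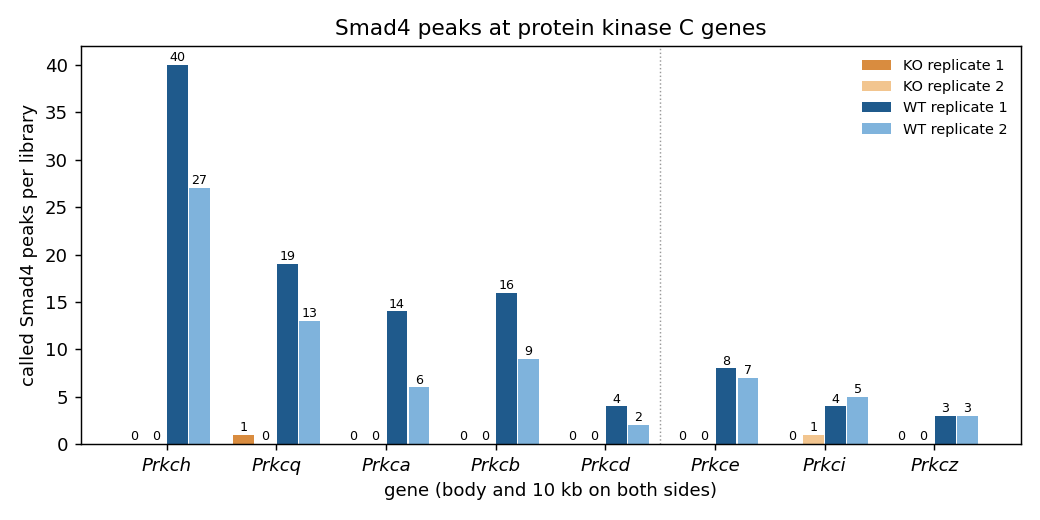
Called Smad4 peaks per library in the body and 10 kb on both sides of each PKC gene; bars give the 2 KO and the 2 WT libraries, and the dotted line sets the 5 genes described here apart from 3 further PKC genes. Prkch had 40 and 27 WT peaks and no KO peak, and Prkcd had 4 and 2 WT peaks and no KO peak.

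Peaks of the 2 WT lists were merged where they overlapped by 1 bp or more, and a region holding a peak of both WT lists and meeting no KO peak is called WT-only. Prkch held 25 WT-only regions, Prkcq 14, Prkcb 8, Prkca 3 and Prkcd 2. All 52 regions found in both WT lists at these genes were free of KO peaks. Of the 16501 such regions in the genome 3.75% met one, a rate at which few would be looked for among 52. A WT-only region was present in 44.3% of all protein-coding genes and in 51.8% of those with territories of at least 100 kb, the class that holds all members but Prkcd. The presence of a region is therefore common, and the number per gene is where the members differ among themselves. Without WT replicate 2 the count rests on WT replicate 1 alone and is 93, with 40 at Prkch, 16 at Prkcb, 14 at Prkca and 4 at Prkcd. Without WT replicate 1 it is 57, with 6 at Prkca.

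Relative to length, Prkch and Prkcq were among the most densely occupied long genes. Prkch had 11.7 WT-only regions per 100 kb of territory, and 5 of the 3137 long genes had a higher density. Prkcq had 9.38 per 100 kb, and 15 long genes were higher. The median long gene had 0.263 per 100 kb. Prkcb, with 2.19 per 100 kb, was exceeded by 11.8% of the long genes, and Prkca, with 0.697 per 100 kb, by 39.0%. Prkcd, in a territory of 51.1 kb, had 3.92 per 100 kb, and 18.4% of the 18642 shorter genes were higher. By number of regions 3 protein-coding genes exceeded Prkch, and the highest count in any gene was 39.

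**Figure D2:**
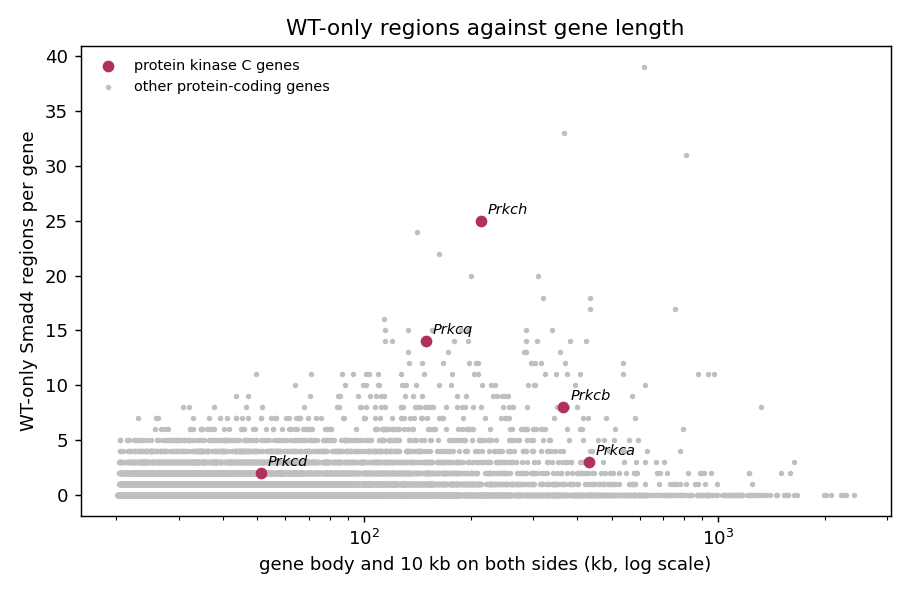
WT-only Smad4 regions per gene (vertical axis) against the length of the gene body with 10 kb on both sides in kb (horizontal axis, log scale), with the PKC genes in red and all other protein-coding genes in grey. Prkch with 25 and Prkcq with 14 regions stand near the upper edge for their length. Prkca with 3 regions in 430.5 kb lies lower, though above the median of 1 for territories of at least 100 kb.

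The start of each gene with an annotated promoter lay under a WT-only region. RefSeq promoter windows on mm10 (GRCm38.p6), from 250 bases before to 50 after the start, matched 4 of the 5 genes; Prkch was not matched. The window at the annotated start lay wholly inside a WT-only region for Prkcq, Prkca, Prkcb and Prkcd. The same held for 18.9% of 21263 promoter windows of protein-coding genes. A WT-only region joins the peaks of both WT lists, and only at Prkcb did the peak of each list cover the whole window. At Prkcq and Prkcd the peak of WT replicate 1 covered it all and that of WT replicate 2 a part. At Prkca the peak of each list covered a part. A further Prkcd window inside the gene (chr14:30610261-30610560) met no WT-only region. The 4 covered windows are shown because they are the stretches of known sequence under the regions, at chr2:11172132-11172431 (Prkcq, plus strand), chr11:108343839-108344138 (Prkca, minus strand), chr7:122288875-122289174 (Prkcb, plus strand) and chr14:30626159-30626458 (Prkcd, minus strand). Each reads 5′ to 3′ on the gene's strand, and capitals mark CAGAC, a SMAD-binding element, and GGCGC, a GC-rich SMAD element, on either strand.
Prkcq: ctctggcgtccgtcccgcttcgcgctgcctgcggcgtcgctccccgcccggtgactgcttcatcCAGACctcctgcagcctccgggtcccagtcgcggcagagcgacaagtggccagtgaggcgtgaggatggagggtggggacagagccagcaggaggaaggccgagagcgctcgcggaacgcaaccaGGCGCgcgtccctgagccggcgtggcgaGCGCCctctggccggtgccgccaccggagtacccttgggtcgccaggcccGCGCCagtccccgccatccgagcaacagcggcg
Prkca: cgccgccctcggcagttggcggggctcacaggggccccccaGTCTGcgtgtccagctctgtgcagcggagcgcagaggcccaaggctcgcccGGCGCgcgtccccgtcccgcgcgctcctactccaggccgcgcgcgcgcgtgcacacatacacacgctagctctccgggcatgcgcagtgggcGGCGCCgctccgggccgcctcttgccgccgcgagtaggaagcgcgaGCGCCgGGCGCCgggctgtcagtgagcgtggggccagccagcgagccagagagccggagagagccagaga
Prkcb: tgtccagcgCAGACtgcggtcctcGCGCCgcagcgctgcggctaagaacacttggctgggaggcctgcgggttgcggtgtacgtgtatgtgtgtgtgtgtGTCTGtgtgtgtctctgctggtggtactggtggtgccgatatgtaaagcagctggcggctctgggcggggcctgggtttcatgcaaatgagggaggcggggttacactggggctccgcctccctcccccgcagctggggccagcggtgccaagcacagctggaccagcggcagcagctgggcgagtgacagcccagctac
Prkcd: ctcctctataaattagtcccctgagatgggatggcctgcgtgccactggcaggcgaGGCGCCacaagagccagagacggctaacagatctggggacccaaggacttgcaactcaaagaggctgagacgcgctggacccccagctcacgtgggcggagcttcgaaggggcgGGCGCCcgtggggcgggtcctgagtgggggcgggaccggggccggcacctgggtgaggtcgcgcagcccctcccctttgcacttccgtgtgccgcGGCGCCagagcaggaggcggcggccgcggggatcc

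In these windows CAGAC or its reverse complement occurred once in Prkcq, once in Prkca, 2 times in Prkcb and 0 times in Prkcd. It was held by 49.6% of all 32851 promoter windows in the table and by 48.1% of the 4589 that lay inside a WT-only region. GGCGC occurred 3 times in Prkcq, 6 times in Prkca, 1 time in Prkcb and 6 times in Prkcd, counting both strands, so that an overlapping GGCGCC counts once per strand. It was held by 36.9% of all windows and by 77.3% of those inside WT-only regions. The windows inside WT-only regions were also richer in G and C, with a median of 65.0% against 52.7% over all windows. The members' windows had 73.0% in Prkcq, 75.3% in Prkca, 65.3% in Prkcb and 69.3% in Prkcd. The part of base composition in these motif shares was not tested. The ETS motif GGAAGT was found in Prkcd alone among the 4 windows, and in 23.8% of all windows. The AP-1 motif TGANTCA, the CRE part TGACGT, the RUNX motif TGTGGTT and the STAT motif TTCNNNGAA were in none of the 4. They occurred in 7.81%, 7.51%, 5.27% and 8.30% of all windows, in that order. A match describes letters in the window and not a bound site.

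Prkch (chromosome 12, 73584796 to 73778185, 193 kb) was occupied along most of its length. Regions are ranked by the sum of their peak widths in the 2 WT lists, with WT replicate 1 given first. The top region (73603871 to 73605902) had peaks of 2032 and 1586 bp. The next (73592853 to 73594570) had peaks of 1696 and 1718 bp. Both lay within 21 kb of the gene's low-coordinate end, at 20.1 and 8.92 kb. The region at 73698146 to 73699729 had peaks of 1296 and 1566 bp, and the region at 73715332 to 73716701 peaks of 1370 and 1010 bp. The fifth (73610863 to 73612181) had peaks of 1298 and 858 bp. Neighbouring WT-only regions were a median of 4.06 kb apart, and 11 of them fell within 57.5 kb at the low-coordinate end. The longest stretch without one was 31.0 kb, between 63.1 and 94.7 kb from the low-coordinate end. Of the 23 regions inside the gene, 12 lay nearer the low-coordinate end than the other.

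At the ends of Prkch, a region at 73584255 to 73585144 covered the low-coordinate end, with peaks of 890 bp in WT replicate 1 and 388 bp in WT replicate 2. It also met LOC115488016, an annotated protein-coding gene of 1458 bp that overlaps this end, so the region cannot be assigned to Prkch alone. At the other end a region (73778854 to 73779983) began 0.669 kb beyond the gene, with peaks of 1130 and 560 bp. The nearest KO peak to the territory was 99.8 kb away, in KO replicate 2, and the nearest of KO replicate 1 was 2582 kb away.

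Prkcq (chromosome 2, 11171905 to 11301226, 129 kb) had most of its WT-only regions in and just before the part near the start. Of its 14 regions, 12 fell within 57.9 kb, from 11160734 to 11218607. The others lay farther in, at 82.3 and 94.6 kb from the start. The first by summed peak width (11192078 to 11193573), 20.9 kb into the gene, had peaks of 1496 and 1438 bp in the 2 lists. The second by that sum (11160734 to 11161910), before the gene, had peaks of 1156 and 1136 bp, and met the territory by its last 6 bp. These pairs of peaks were of near-equal width. The region at 11214505 to 11216154 had a peak of 1650 bp in WT replicate 1 and of 242 bp, the smallest width in that list, in WT replicate 2. The regions at 11194453 to 11195546 and 11203085 to 11203906 had peaks of 1094 and 822 bp in WT replicate 1, and of 786 and 352 bp in WT replicate 2. The region over the start (11171872 to 11172560) had peaks of 676 and 242 bp.

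The single KO peak of the 5 territories lay at 11177738 to 11177991 in Prkcq, 5.96 kb from the start, in KO replicate 1. It was 254 bp wide, the smallest width in its list, which 271 of the 564 peaks of that list share. It met no WT peak, and the nearest WT regions were 3.79 kb below and 2.65 kb above it. With peaks of the smallest width left out, or without KO replicate 1, no KO peak lay in any of the 5 territories. Just outside the territory of Prkcq, WT-only regions of 834 and 1080 bp lay 11.6 kb before and 11.5 kb after the gene.

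Prkcd (chromosome 14, 30595353 to 30626414, 31.1 kb) was occupied at and just before its start. A WT-only region over the start (30625867 to 30626474) had peaks of 608 bp in WT replicate 1 and 304 bp in WT replicate 2. A second (30627097 to 30627466), 0.683 kb before the gene, had peaks of 370 and 304 bp. WT replicate 1 had another 2 peaks, of 364 and 370 bp, within 2.11 kb of the start inside the gene, where WT replicate 2 had none. No library had a peak in the 28.9 kb of the gene beyond the centre of the last of these. Just outside the territory, a WT-only region of 570 bp lay 10.4 kb beyond the far end.

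Among the conventional forms, Prkcb (chromosome 7, 122289104 to 122634402, 345 kb) had its widest WT-only region over the start (122288692 to 122290299), with a peak of 1282 bp in WT replicate 1 and of 1608 bp in WT replicate 2. A second (122293896 to 122294741), 5.21 kb into the gene, had peaks of 752 and 846 bp. In both, the peak of WT replicate 2 was the wider. A group of 5 regions followed between 83.4 and 125 kb, over 42.5 kb. Its widest (122397508 to 122398381) had peaks of 874 and 688 bp. The regions at 122372207 to 122372832 and 122388679 to 122389290 had peaks of 626 and 612 bp in WT replicate 1, and of 488 and 494 bp in WT replicate 2. The last region lay 218 kb from the start, and no library had a peak in the 128 kb of the gene beyond it.

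Prkca (chromosome 11, 107933387 to 108343888, 411 kb), the longest of the 5 genes, had the lowest share of peaks that met a peak of the other WT list. A WT-only region over the start (108343504 to 108344270) had a peak of 600 bp in WT replicate 1 and of 430 bp in WT replicate 2. A region 70.7 kb into the gene (108272508 to 108273912) had peaks of 1220 and 1382 bp, and one at 140 kb (108204043 to 108204517) peaks of 318 and 442 bp. The other 14 merged regions came from 1 WT list each. The farthest lay 167 kb from the start, and the remaining 243 kb of the gene held no peak of any library. Of the Prkca peaks in WT replicate 1, 3 of 14 met a peak of WT replicate 2 (21.4%, exact 95% Clopper-Pearson interval 4.66% to 50.8%). Of those in WT replicate 2, 3 of 6 met one of WT replicate 1 (interval 11.8% to 88.2%).

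**Figure D3:**
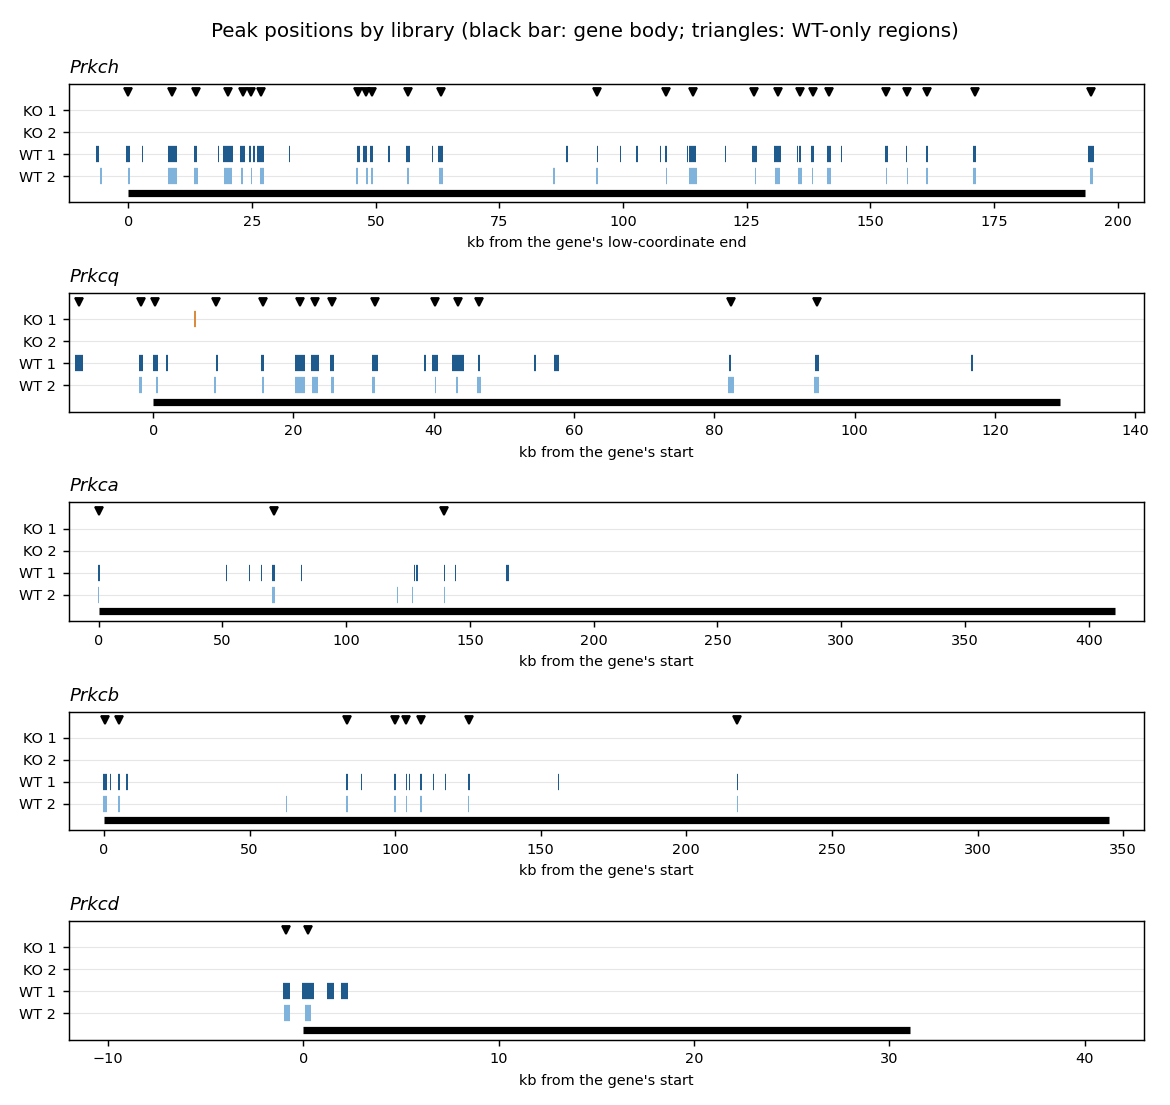
Peak positions in the 2 KO and the 2 WT lists along each PKC gene and 10 kb on both sides, in kb from the gene's start (for Prkch, from its low-coordinate end), with the gene body as a black bar and WT-only regions as triangles. Regions run along most of Prkch, lie mostly in the part near the start in Prkcq, and leave the last 243 kb of Prkca and 128 kb of Prkcb empty.

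The position inside the gene was thus uneven in the 3 long genes with a known start. Of the 20 WT-only regions inside Prkcq, Prkca and Prkcb and over 1 kb from both ends, 17 lay nearer the start than the far end. Over all 1866 genes of at least 100 kb with a known start, 58.1% of 2185 such regions did. Regions of 1 gene are neighbours and not independent, and this difference was not tested. Of all 52 WT-only regions of the 5 genes, 43 were inside a gene, 6 within 1 kb of a start (for Prkch, of the low-coordinate end), 3 outside, and 0 within 1 kb of the other end.

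Agreement between the WT lists over the 5 genes was near that of the whole genome. Of the peaks in WT replicate 1, 52 of 93 met a peak of WT replicate 2 (55.9%, exact 95% Clopper-Pearson interval 45.2% to 66.2%), against 61.5% over all its peaks. Of the peaks in WT replicate 2, 51 of 57 met a peak of WT replicate 1 (89.5%, 78.5% to 96.0%), against 85.8%. These intervals cover counting error only. By gene, the share of WT replicate 1 was 62.5% in Prkch, 73.7% in Prkcq, 8 of 16 in Prkcb, 2 of 4 in Prkcd and 3 of 14 in Prkca. The interval of Prkca (4.66% to 50.8%) lay below the 61.5% of all peaks, and that of each other gene covered it. Peaks of 1 gene are neighbours and not independent, and the difference between genes was not tested. Of the 47 regions from 1 WT list, 41 came from WT replicate 1 and 6 from WT replicate 2. Their median width was 302 bp, as over the whole genome, and 18 had the smallest width of their list. The widest, in Prkca, was 880 bp.

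The WT-only regions of the 5 genes had a median width of 757 bp, against 644 bp over all WT-only regions. At least 1 kb wide were 14 of 52 (26.9%), against 22.2% of all. Prkch held 8 of these wide regions, Prkcq 4, and Prkca and Prkcb 1 each. The peak in WT replicate 1 was the wider in 40 of 52 (76.9%), against 67.4% of all WT-only regions. The peak in WT replicate 2 stood at the list's smallest width in 11 of 52 (21.2%), against 13.2% of all. Across the 52 regions the widths in WT replicates 1 and 2 had a Spearman correlation of 0.54, and of 0.727 across all WT-only regions. Regions in these correlations share their libraries and the smallest width of each list.

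**Figure D4:**
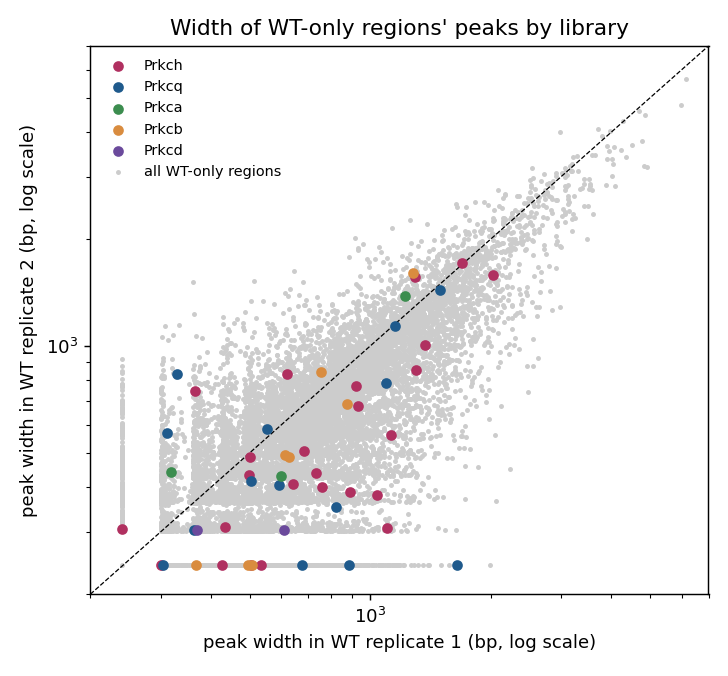
Width of the peaks of each WT-only region in WT replicate 1 (horizontal axis) and WT replicate 2 (vertical axis), in bp on log scales, with PKC regions coloured by gene, all WT-only regions in grey and equal widths on the dashed line. Of the 52 PKC regions, 40 lie below the line, 11 of them at the 242 bp floor of WT replicate 2.

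Further PKC genes had fewer regions than Prkch, Prkcq or Prkcb, but not all had fewer than Prkca or Prkcd. Prkce, a further calcium-independent form (PKC-ε), had no peak in either KO library, against 8 and 7 in WT replicates 1 and 2, and held 6 WT-only regions. The atypical form Prkci had 0 and 1 in KO replicates 1 and 2, against 4 and 5 in WT replicates 1 and 2, and held 3 WT-only regions. Prkcz, the other atypical form, had none in KO, against 3 and 3 in WT replicates 1 and 2, and held 2. Per 100 kb of territory Prkce had 1.18 WT-only regions, Prkci 3.90 and Prkcz 1.65. The members ran from 0.697 in Prkca to 11.7 in Prkch, with 2.19 in Prkcb, 3.92 in Prkcd and 9.38 in Prkcq.

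Genes that act before PKC in T cell receptor signalling had a WT-only region in 9 of 10 cases, with a median of 4 regions a gene. Over all protein-coding genes the share was 44.3% and the median 0. The 5 PKC genes had a median of 8 regions, but per 100 kb of territory their median was 3.92, against 6.71 in the genes that act before PKC. Density differs with length, with a 90th percentile of 2.57 per 100 kb in long genes and 5.65 in those under 100 kb. All members but Prkcd are long and most genes that act before PKC are not, so these medians are not like for like. The list held genes of phospholipase C, which makes diacylglycerol, of diacylglycerol kinases, which remove it, and others such as Vav1 and Cd28. Cd28, a costimulatory receptor gene, held 9, and the phospholipase gene Plcg1 held 7. Dgke, a diacylglycerol kinase gene, had none. Genes that act after PKC, or that it phosphorylates, had one in 13 of 14 cases, with a median of 2 regions a gene and 3.50 per 100 kb. Lck, a kinase gene placed in this list although its product also acts before PKC, held 7. Marcksl1, a gene of the MARCKS substrate family, had none. Tnfaip3, an inhibitor of NF-κB signalling, was the single gene of these 2 lists with KO peaks, 3 and 1 in KO replicates 1 and 2, against 8 and 4 in WT replicates 1 and 2.

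The genes whose 4 peak counts came nearest to those of Prkch were Ets1, Tg and Arhgef3, by the sum of absolute differences over the 4 lists. Ets1, a lymphocyte transcription factor gene, differed by 8 peaks in all, with none in KO, against 36 and 31 in WT replicates 1 and 2. Tg, the thyroglobulin gene, differed by 9, with 3 and 0 in KO replicates 1 and 2, against 35 and 28 in WT replicates 1 and 2. Arhgef3, which encodes a guanine nucleotide exchange factor, differed by 12, with 1 and 1 in KO, against 33 and 24 in WT replicates 1 and 2. Peaks were assigned by position alone, so those in the territory of Tg, Ets1 or Arhgef3 can also belong to another gene there.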

How the data were processed

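Smad4 ChIP-seq was deposited as 1 peak list for each of 4 ChIP libraries, 2 KO and 2 WT, with chromosome, start and end and no other value. Peaks were called per sample by the authors; Trim Galore, Bowtie, HOMER 4.8.3 and mm10 are named without a role, per the submitters' processing notes. Thresholds and the use of inputs are not given. Depth is unknown. Positions are 1-based.

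Gene bounds came from RefSeq on GRCm38.p6, which is mm10; genes whose start is under 3 Mb were dropped except on Y, since scaffold coordinates stand there. Strand came from the promoter table. A region belongs to a gene if it meets the body or 10 kb on both sides. The members and lists were chosen with earlier results of these data known. The rule for named genes took all members, their 5 widest regions, those at gene ends and those with KO peaks, further PKC genes, from the pathway lists the 3 genes with most regions (4 with a tie), those with KO peaks and those without a region, and the 3 genes nearest to Prkch. A few genes under this rule are not reported here. A planned protein comparison was not run. No test was run, since peaks assigned the regions; an exact permutation test of 2 against 2 cannot go below p = 0.333. Interval functions were checked on simulated peaks. Alternatives were other territories, overlap rules, wider peaks, leaving out each library and pairing by replicate number. Python 3.11.15, numpy 2.4.6, pandas 2.3.3, SciPy 1.17.1 and matplotlib 3.10.9 were used.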

Additional observations from a re-analysis of the deposited data

How the results depend on the processing

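All 5 genes kept a WT-only region under every alternative run for that count: the gene body alone, 50 kb on both sides, only peaks wider than the smallest of their list, and each library left out. The count of WT-only regions, 52, ran from 52 to 93 with a library left out; 93 was reached without WT replicate 2. It was 33 when peaks had to share 50% of both widths, with 15 at Prkch and 8 at Prkcq, a rule that narrow peaks in wide ones cannot meet. It was 35 with centres within 100 bp (16 at Prkch, 9 at Prkcq and 1 at Prkca), 48 for gene bodies alone, 62 with 50 kb on both sides and 40 with wider peaks only (5 at Prkcb). The count of genes with a KO peak, 1, was 0 with wider peaks only; with a library left out it ran from 0 to 1. No test was made, so none was paired; setting each WT list against the KO list of its replicate number (replicate block) also gave 52 regions. Unknown depth limits every count.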
